A study of Mus musculus with 10 samples.

Results

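Chat, Slc18a3, Slc5a7, Slc17a8, Lhx8, Gbx2, Ecel1, Prima1 and Ache are genes of the cholinergic interneurons of the striatum and of the acetylcholine they release. They are 9 of the 32531 gene symbols in the deposited counts and were taken by symbol, not by a measured value. All 9 had a row in each of the 10 libraries. Gbx2 had 0 reads in every library, so 8 genes could be compared.

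Cholinergic interneurons are a small population of large, tonically active neurons that supply most of the acetylcholine of the striatum. They make acetylcholine from choline and acetyl-CoA, load it into vesicles, release it and take the choline back up after the transmitter is split outside the cell. Like the indirect-pathway medium spiny neurons (MSNs), they use the dopamine D2 receptor gene, so that a D2 receptor line can tag ribosomes in both.

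The libraries come from the whole striatum of adult mice of the line Drd2-TRAP CP101. In these mice Drd2 regulatory sequence drives ribosomal protein L10a fused to EGFP, and tagged ribosomes were pulled down with antibodies to EGFP (immunopurification, IP). Mice had taken cocaine or saline by intravenous self-administration in short-access sessions, and the tag is carried after saline as well. There were 5 cocaine IP libraries (numbers 1 to 5), 1 cocaine unbound library (the RNA left after capture), 3 saline IP libraries (numbers 1, 2 and 4) and 1 saline input library (total RNA before capture). The labels name medium spiny neurons as the cell type of all 10. The sources used here give neither strain background nor sex nor the number of animals behind a library, so p-values measure the spread between these libraries, which may in part be technical.

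Reads counted to genes ranged from 22975667 to 31631137 in the IP libraries and came to 20882691 in the unbound and 18408782 in the input library. Levels are CPM, the count of a gene scaled to the gene reads of its library. A floor of 3 reads corresponds to 0.0948 to 0.131 CPM in the IP libraries, 0.144 CPM in the unbound library and 0.163 CPM in the input. Intervals and floors cover counting error only. Drd2 itself was 2.51 ± 0.27 higher on the log2 scale in cocaine IP than in unbound RNA (SD, n = 5) and 2.79 ± 0.13 higher in saline IP than in input (SD, n = 3), and the direct-pathway receptor gene Drd1 was lower, at -2.70 and -3.26, in the same comparisons. The number 1 libraries of both treatments stand apart in several of the genes described here, so that results which rest on them are given with and without them. They did not share a sequencing lane, since cocaine IP 1 was read in lane 6 and saline IP 1 in lane 7. The unbound and the input library were both read in lane 1, which held no IP library. Lane and fraction thus cannot be told apart in the ratios of IP to its reference.

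Chat and Slc18a3 form the cholinergic gene locus, in which the vesicular transporter gene is nested in the transferase gene. On GRCm38, Chat lies at chr14:32408203-32465989 and Slc18a3 at chr14:32462438-32464850, both on the minus strand, and their 5′ ends are 1139 bases apart. They share 0 exonic bases, so that reads can be assigned to each. The upstream sequences below are from RefSeq (GRCm38.p6) and cover the stretch of the promoter window that lies in no annotated exon. They are shown for this locus, whose genes are read from neighbouring starts, and for Slc5a7 and Prima1. These were the only genes of the 9 that passed a test below in its main setting, and others passed only under alternatives. Capitals mark the E-box CACGTG and the GC box GGGCGG or its reverse CCGCCC. Each is written 5′ to 3′ on the minus strand, from chr14:32465990-32466159 (Chat), chr14:32464851-32465041 (Slc18a3), chr17:54299035-54299284 (Slc5a7) and chr12:103242151-103242396 (Prima1).
Chat: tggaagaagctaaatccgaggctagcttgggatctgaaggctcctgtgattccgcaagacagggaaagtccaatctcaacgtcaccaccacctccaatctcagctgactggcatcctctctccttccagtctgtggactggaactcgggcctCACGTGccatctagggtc
Slc18a3: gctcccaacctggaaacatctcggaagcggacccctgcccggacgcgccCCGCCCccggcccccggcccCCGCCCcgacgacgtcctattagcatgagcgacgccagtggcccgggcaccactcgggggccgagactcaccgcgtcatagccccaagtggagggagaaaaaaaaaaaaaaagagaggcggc
Slc5a7: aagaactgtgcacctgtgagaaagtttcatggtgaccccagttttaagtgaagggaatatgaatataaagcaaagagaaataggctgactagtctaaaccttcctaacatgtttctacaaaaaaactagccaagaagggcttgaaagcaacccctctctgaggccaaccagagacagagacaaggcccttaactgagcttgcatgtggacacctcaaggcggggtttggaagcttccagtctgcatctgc
Prima1: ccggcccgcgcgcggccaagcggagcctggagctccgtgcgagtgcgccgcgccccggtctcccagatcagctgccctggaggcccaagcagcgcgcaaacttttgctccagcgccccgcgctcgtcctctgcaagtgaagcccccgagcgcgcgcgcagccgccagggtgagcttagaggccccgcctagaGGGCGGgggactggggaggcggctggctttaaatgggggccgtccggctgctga

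The motif search covered the windows of 250 bases before to 50 after each RefSeq start, on both strands. CACGTG was found for 3 of the 9 genes (Ache, Chat and Gbx2), against 7.15% of 32851 windows of all genes. GGGCGG or CCGCCC was found for 4 (Ache, Gbx2, Prima1 and Slc18a3), against 35.7% of windows. TAATTA, the core bound by LIM-homeodomain factors such as Lhx8, was found for Slc17a8 alone, at its inner start, against 5.29% of windows, and TGACGTCA for 0 of 9, against 1.79%. Chat holds its CACGTG 98 bases before the RefSeq start site. The GC boxes of Slc18a3 begin 142 and 122 bases before its start and that of Prima1 58 bases before. The Slc5a7 window holds none of these letters. A match is a description of the sequence only.

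Per kilobase of exon, Prima1 was the most abundant of these transcripts in the captured RNA. It averaged 10.9 ± 2.5 CPM per kb in cocaine IP (SD, n = 5) and 11.5 ± 4.5 CPM per kb in saline IP (SD, n = 3), and its range did not overlap that of the next gene in either. Slc5a7 came next at 2.46 ± 0.75 CPM per kb in cocaine IP, followed by Lhx8 at 1.81, Ecel1 at 1.64, Ache at 1.36, Slc17a8 at 1.19, Slc18a3 at 0.94 and Chat at 0.51. From Slc5a7 down, the ranges of neighbours in this order overlapped. Saline IP gave the same order but for Ache, which stood above Ecel1, at 1.61 and 1.41 CPM per kb. In the unbound library the order began with Prima1 at 5.54, Lhx8 at 4.01 and Slc5a7 at 3.99 CPM per kb, and in the input with Prima1 at 8.32, Slc5a7 at 5.97 and Lhx8 at 5.86. The lead of Prima1 depends on its exon length, 1253 bases against 5644 for Slc5a7, and the annotation used for counting is not given. In CPM, Slc5a7 averaged 13.9 and Prima1 13.7 in cocaine IP, and 12.0 and 14.4 in saline IP, with overlapping ranges. In the unbound and input libraries Slc5a7 had the higher CPM. For comparison, Drd2 had 775 CPM per kb in cocaine IP and 934 CPM per kb in saline IP. All of these genes are thus rare in the captured RNA, and the reads behind them are few. Chat had 349 reads over the 5 cocaine IP libraries, 68 in the unbound library, 261 over the 3 saline IP libraries and 71 in the input.

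**Figure D1:**
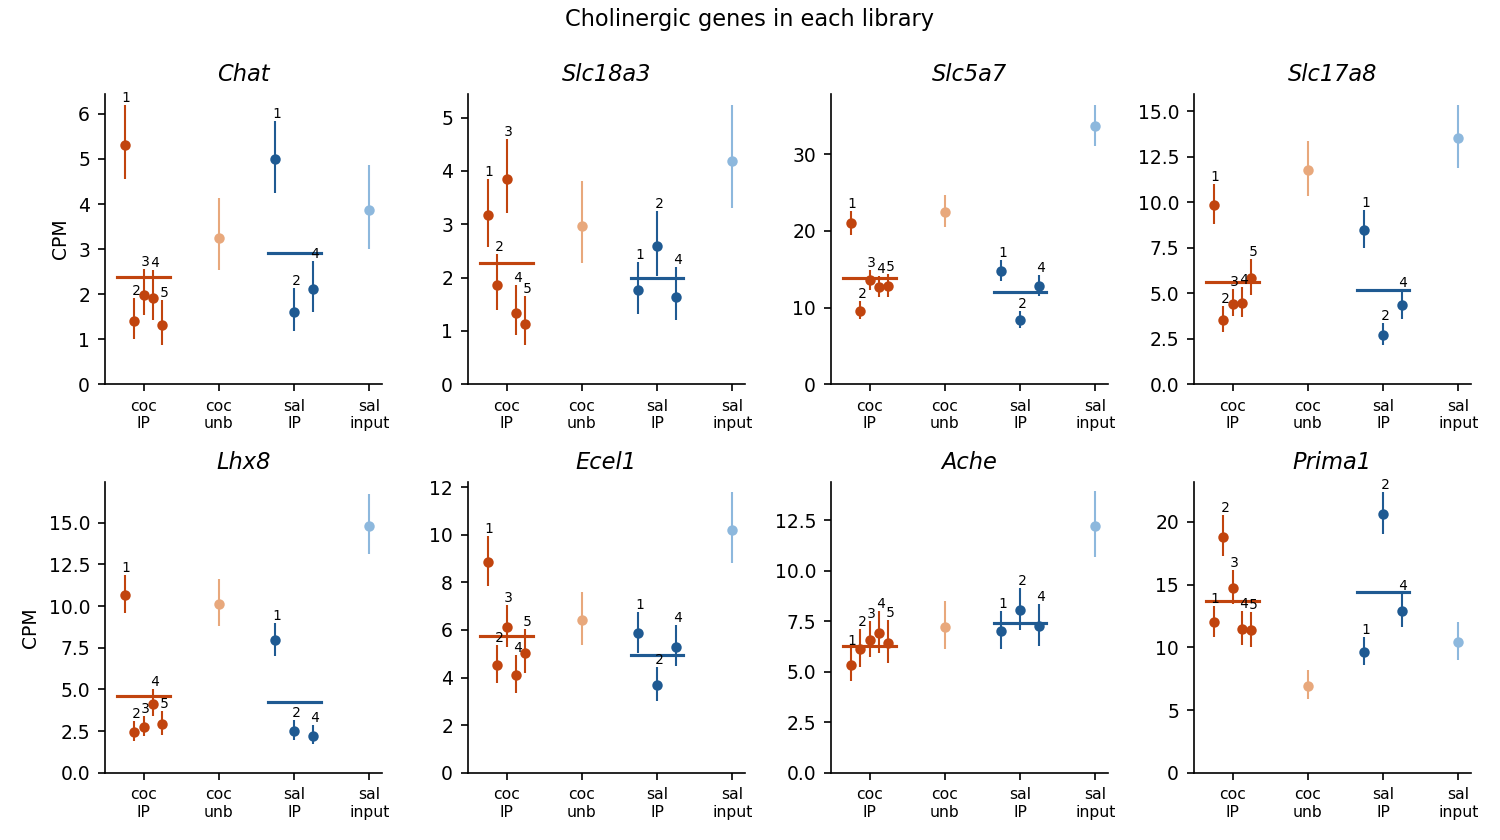
CPM (reads scaled to the gene reads of the library) of the 8 detected genes in each library, with each panel on its own linear axis from 0. Points are libraries with their replicate number, in cocaine IP, cocaine unbound, saline IP and saline input, thin bars are 95% Poisson intervals of the reads and thick lines are the means of the IP groups. Chat and Lhx8 are highest in the number 1 IP library of each treatment, while Prima1 is the gene whose IP libraries all lie above the unbound library after cocaine.

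Chat encodes choline acetyltransferase, which makes acetylcholine and defines a cholinergic neuron. It had 5.32, 1.40, 1.99, 1.91 and 1.31 CPM in cocaine IP 1 to 5, against 3.26 CPM in the unbound library. After saline it had 4.99, 1.60 and 2.12 CPM in IP 1, 2 and 4, against 3.86 CPM in the input. Only the number 1 library lay above the uncaptured RNA in each treatment, and all others lay below it. The mean log2 ratio was -0.30 ± 0.58 for cocaine IP over unbound (SD, n = 5) and -0.24 ± 0.62 for saline IP over input (SD, n = 3). Neither mean exceeded the spread between libraries, a result that rests on the number 1 libraries. Without them the ratios were -0.54 ± 0.19 after cocaine (SD, n = 4) and -0.58 ± 0.19 after saline (SD, n = 2). These ratios use TMM-scaled CPM plus 1, which understates the change of low genes. The 2-fold rule asks that all IP libraries of a treatment lie at least 2-fold above, or at least 2-fold below, the single reference.

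Slc18a3, the vesicular acetylcholine transporter nested in the Chat gene, had 3.17, 1.86, 3.86, 1.33 and 1.13 CPM in cocaine IP 1 to 5, against 2.97 CPM in the unbound library. It had 1.76, 2.59 and 1.64 CPM in saline IP 1, 2 and 4, against 4.18 CPM in the input. All saline IP libraries lay below their input, by -0.63 ± 0.25 on the log2 scale (SD, n = 3), while the cocaine IP libraries lay on both sides of the unbound value, at -0.21 ± 0.52 (SD, n = 5). Its highest cocaine library was number 3, where Chat had 1.99 CPM, so that these neighbours were not highest in the same library.

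Slc5a7 encodes the high-affinity choline transporter, which returns choline to the terminal, and lies at chr17:54273590-54299034 on the minus strand of GRCm38. It had 21.0, 9.57, 13.6, 12.7 and 12.8 CPM in cocaine IP 1 to 5, against 22.5 CPM in the unbound library, and 14.8, 8.38 and 12.9 CPM in saline IP 1, 2 and 4, against 33.7 CPM in the input. Every IP library lay below its unbound or input library in CPM. On the log2 scale the ratio was -0.51 ± 0.36 after cocaine (SD, n = 5), with cocaine IP 1 at 0.05, and -1.23 ± 0.38 after saline (SD, n = 3), where saline IP 1 at -0.95 kept it just short of 2-fold in every library. It is the gene of this group that was lower in saline IP than in input in the edgeR test described below.

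Slc17a8 encodes VGLUT3, the vesicular glutamate transporter with which these interneurons also release glutamate, and lies at chr10:89574020-89621253 on the minus strand. It had 9.85, 3.51, 4.43, 4.45 and 5.83 CPM in cocaine IP 1 to 5, against 11.8 CPM in the unbound library. In saline IP 1, 2 and 4 it had 8.48, 2.69 and 4.35 CPM, against 13.5 CPM in the input. All 8 IP libraries lay below their unbound or input library, with the number 1 library the nearest to it in both treatments. The log2 ratio was -0.85 ± 0.46 after cocaine (SD, n = 5) and -1.14 ± 0.67 after saline (SD, n = 3).

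Lhx8 is a LIM-homeodomain transcription factor that forebrain cholinergic neurons need to form and that these interneurons keep in the adult. It lies at chr3:154306294-154330659 on the minus strand. It had 10.7, 2.47, 2.75, 4.14 and 2.92 CPM in cocaine IP 1 to 5, against 10.2 CPM in the unbound library. After saline the values were 7.94, 2.52 and 2.23 CPM in IP 1, 2 and 4, against 14.8 CPM in the input. The 6 IP libraries other than number 1 lay at 2.23 to 4.14 CPM, under the unbound and the input value alike, and both number 1 libraries lay well above them. The mean log2 ratios were -0.99 ± 0.70 after cocaine (SD, n = 5) and -1.56 ± 0.79 after saline (SD, n = 3), the lowest means of the 8 genes in both comparisons. Without the number 1 libraries they were -1.29 ± 0.24 (SD, n = 4) and -2.01 ± 0.08 (SD, n = 2).

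Gbx2 (chr1:89927956-89931179, minus strand), a homeobox factor used by cholinergic interneurons and thalamic neurons during development, was not detectable at this depth in any library, where a count of 0 allows up to 0.0948 to 0.163 CPM. An opposite-strand transcript, D130058E05Rik, covers 43.5% of its exonic bases, and the sources used here do not give the strand setting of the counting.

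Ecel1 encodes a membrane protein of the endothelin-converting enzyme family, at chr1:87147655-87156521 on the minus strand. It had 8.87, 4.52, 6.13, 4.10 and 5.05 CPM in cocaine IP 1 to 5, against 6.42 CPM in the unbound library, and 5.86, 3.68 and 5.30 CPM in saline IP 1, 2 and 4, against 10.2 CPM in the input. The cocaine IP libraries lay around the unbound value, at a log2 ratio of -0.01 ± 0.36 (SD, n = 5). All 3 saline IP libraries lay below the input, at -0.73 ± 0.28 (SD, n = 3).

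Ache encodes acetylcholinesterase, which splits acetylcholine after release and is made by other neurons as well. It lies at chr5:137287519-137294466 on the plus strand. It varied least from library to library on the log2 scale, with 5.32, 6.13, 6.58, 6.91 and 6.44 CPM in cocaine IP 1 to 5, against 7.23 CPM in the unbound library. In saline IP 1, 2 and 4 it had 7.01, 8.04 and 7.27 CPM, against 12.2 CPM in the input. All 8 IP libraries lay below their unbound or input library in CPM. With TMM scaling the log2 ratio was -0.01 ± 0.14 after cocaine (SD, n = 5), with libraries on both sides of 0, and -0.44 ± 0.11 after saline (SD, n = 3), where 3 of 3 libraries were lower. With library size alone it was -0.18 after cocaine and -0.65 after saline. An opposite-strand gene model, Gm42456, shares 2.12% of its exonic bases.

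Prima1 encodes the proline-rich membrane anchor that holds acetylcholinesterase at the surface of brain neurons, and lies at chr12:103196908-103242150 on the minus strand. It had 12.0, 18.8, 14.8, 11.5 and 11.4 CPM in cocaine IP 1 to 5, against 6.94 CPM in the unbound library. In saline IP 1, 2 and 4 it had 9.64, 20.6 and 12.9 CPM, against 10.4 CPM in the input. All cocaine IP libraries lay above the unbound library, while saline IP 1 lay below the input in CPM and level with it after TMM scaling, at a log2 ratio of 0.07. The mean log2 ratio was 1.03 ± 0.32 after cocaine (SD, n = 5), with the lowest library at 0.79, and 0.58 ± 0.54 after saline (SD, n = 3). After cocaine the captured RNA thus held Prima1 above the unbound level under both scalings, while Ache, the gene of the anchored enzyme, did not exceed it on average under either.

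**Figure D2:**
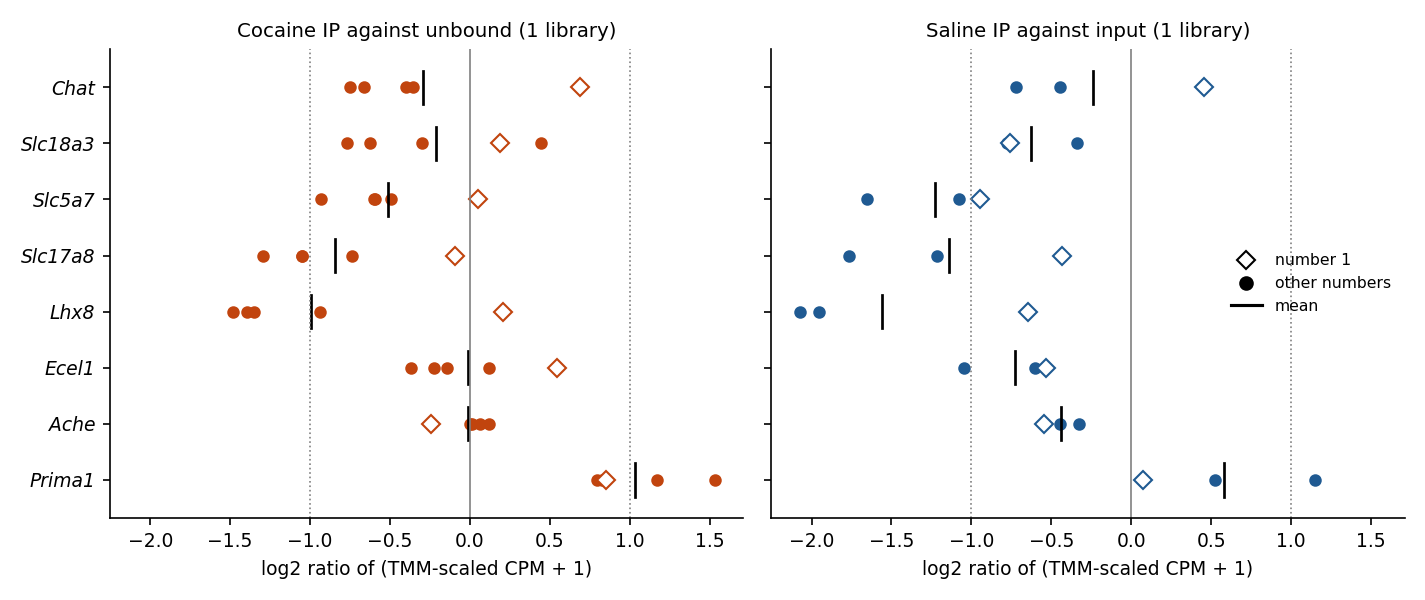
Log2 ratio of TMM-scaled CPM plus 1 in each IP library over the single unbound library (cocaine, left) or the single input library (saline, right). Open diamonds are the number 1 libraries, filled circles the others, short bars the means and dotted lines 2-fold. Prima1 is the only gene above 0 in all libraries of both panels, and the number 1 diamonds lie to the right of the circles for Chat, Slc5a7, Slc17a8, Lhx8 and Ecel1.

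By the 2-fold rule, 0 of the 8 genes were higher and 0 were lower in cocaine IP than in unbound RNA, where 3.78% of the 12643 genes compared were higher and 9.74% lower. In saline IP against input the counts were again 0 and 0, with 1.64% of 12902 genes higher and 11.6% lower. By direction alone and with TMM scaling, 1 of the 8 genes (Slc17a8) was lower and 1 (Prima1) higher in all 5 cocaine IP libraries, and 6 had mixed signs. The shares over all genes were 29.9% lower and 44.3% higher. In saline IP, 6 of the 8 genes were lower than the input in all 3 libraries and 1 (Prima1) was higher, against 32.8% and 44.2% of all genes. With library size alone, 3 genes (Slc5a7, Slc17a8 and Ache) were lower in all 5 cocaine IP libraries, 1 (Prima1) was higher and 4 were mixed, where 37.6% of genes were lower. In saline IP the 6 genes were again lower, none was higher and 2 were mixed, where 43.6% of genes were lower. This scaling of the directions was added after seeing the data. The median log2 ratio of the 8 genes was -0.25 ± 0.34 after cocaine (SD over 5 IP libraries) and -0.68 ± 0.17 after saline (SD over 3 IP libraries), beside 0.17 and 0.13 over all genes compared. With library size alone as the scaling, the median of all genes moved to -0.011 after cocaine and -0.095 after saline. Relative to the median of all genes, Prima1 stood 0.87 higher after cocaine and 0.45 higher after saline, and Slc5a7 stood at -0.68 and -1.35. In bulk RNA of this kind, fewer cells of a type and less RNA per cell cannot be told apart.

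A fit over all 10 libraries in 4 groups (edgeR quasi-likelihood, two-sided, Benjamini-Hochberg adjustment over 16876 genes) assumes that the single unbound and input libraries vary as the IP libraries do. It placed Prima1 higher in cocaine IP than in unbound RNA, by 1.17 on the log2 scale (SE 0.44, edgeR adjusted p = 0.0495), as it did 17.6% of all genes, with 23.8% lower. It placed Slc5a7 lower in saline IP than in input, by -1.24 (SE 0.35, edgeR adjusted p = 0.0182), as it did 20.0% of all genes, with 13.9% higher. The other 6 genes passed in neither comparison. Prima1 did not pass after saline, at 0.73 (SE 0.44, edgeR adjusted p = 0.215), nor did Slc5a7 after cocaine, at -0.52 (SE 0.34, edgeR adjusted p = 0.234). Whether the size of either difference depends on treatment was not tested, since the 2 references are different fractions. Both references were read in lane 1 and no IP library was, so that lane and fraction cannot be told apart in either call.

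Both calls depended on single libraries. Prima1 did not pass without cocaine IP 2, 3 or 4 (edgeR adjusted p = 0.0704, 0.0625 and 0.0592), nor did it with library size alone (0.98, edgeR adjusted p = 0.0753), and Slc5a7 did not pass without saline IP 2 (-1.02, edgeR adjusted p = 0.0510). Without cocaine IP 1, Slc17a8 and Lhx8 were lower than in unbound RNA, by -1.18 (edgeR adjusted p = 0.0365) and -1.54 (edgeR adjusted p = 0.0245). Without saline IP 1 both were lower than in input, by -1.67 (edgeR adjusted p = 0.0262) and -2.36 (edgeR adjusted p = 0.0247), and 3 genes (Slc5a7, Slc17a8 and Lhx8) then passed the 2-fold rule. That rule then rested on 2 saline IP libraries, and the share of all genes passing it there is not given.

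Unbound RNA after cocaine held less of all 8 genes than input RNA after saline, at 0.592 to 0.871 times its CPM, and 58.6% of 14158 genes were lower in the unbound library. The summed level of thalamus genes went the other way, at 211 CPM in the unbound library and 75.5 CPM in the input. The oligodendrocyte list was also higher in unbound RNA, at 4574 against 4303 CPM, and all other lists summed lower there. The unbound library is the reference of every cocaine ratio, and whether the tissue behind these libraries differed was not tested. With 1 library of each, treatment and fraction cannot be told apart.

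Other genes of cholinergic neurons were measured beside these. Of 5 such genes compared in each treatment, 0 were higher, beside 3.78% of all genes after cocaine and 1.64% after saline. By the same 2-fold rule, 2 were lower in cocaine IP than in unbound RNA, beside 9.74% of all genes. After saline, 3 were lower in IP than in input, beside 11.6%. Isl1, a LIM-homeodomain factor of cholinergic neurons that direct-pathway MSNs also use in development, was lower by -2.65 after cocaine and -2.80 after saline. Nkx2-1, a factor of the ventral forebrain from which striatal interneurons arise, was lower by -1.89 and -2.26. Tacr1, the substance P receptor, was lower after saline by -1.31. Isl1, Nkx2-1 and, after saline, Tacr1 thus passed the 2-fold rule that none of the 8 passed, and the difference between the lists was not tested.

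In choline and acetylcholine metabolism, 0 of 15 genes were higher, beside 3.78% of all genes after cocaine and 1.64% after saline. Lower were 4 in cocaine IP than in unbound RNA and 5 in saline IP than in input, beside 9.74% and 11.6% of all genes. Bche, the butyrylcholinesterase that also splits acetylcholine, was lower by -2.33 after cocaine and -2.23 after saline. Chpt1, which uses choline to make phosphatidylcholine, was lower by -2.23 and -2.42. The choline transporter Slc44a1 was lower by -2.25 and -1.99, and the phospholipase Pld1, which frees choline from membranes, by -1.85 and -2.42.

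Among the other vesicular transporters, Slc17a7 and Slc17a6 (VGLUT1 and VGLUT2) were lower, by -3.12 and -2.94 after cocaine and by -3.54 and -2.59 after saline. Slc32a1, the vesicular GABA transporter of MSNs and GABA interneurons, was higher by 1.64 and 0.62 without passing 2-fold in every library. The median ratio of the GABA interneuron markers was -3.12 ± 0.11 after cocaine and -3.15 ± 0.38 after saline (SD over 5 and 3 IP libraries). That of the indirect-pathway MSN markers was 2.82 ± 0.28 and 2.59 ± 0.34, with 6 of 6 higher in both. The medians of the 8 cholinergic genes (-0.25 and -0.68) lie between these lists, as do those of all genes compared (0.17 and 0.13). The cholinergic medians lie below those of all genes. No test was made between lists.

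The summed CPM of the 9 genes lay at 46.8 to 76.2 in cocaine IP, 71.3 in unbound RNA, 48.7 to 60.5 in saline IP and 103 in input. For the indirect-pathway MSN list it lay at 6993 to 12316, 1288, 8019 to 11964 and 1722 CPM in the same order. Sums for the 10 GABA interneuron genes were 11.0 to 24.4, 270, 9.23 to 18.5 and 308 CPM. The sums of captured and uncaptured RNA overlapped after cocaine for the cholinergic genes and did not for these other lists. That overlap came from cocaine IP 1 alone, since the other 4 cocaine IP sums were 46.8 to 54.1 CPM, and no test was made of the difference between lists.

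Between cocaine and saline, the captured cholinergic transcripts showed no difference that passed the test. Of 13800 genes fitted over the 8 IP libraries, 0 passed an adjusted p of 0.05 with edgeR, and 295 genes (2.14%) had an unadjusted p under 0.05. DESeq2 also called 0 genes. None of the 8 cholinergic genes was among the 295, all had an edgeR adjusted p of 0.9998, and the cocaine and saline ranges of TMM-scaled CPM overlapped for each, where the groups did not overlap for 2.37% of genes, 1.05% with cocaine higher and 1.32% with cocaine lower. In CPM by library size, 1 of the 8 genes, Ache, did not overlap, at 5.32 to 6.91 CPM in cocaine IP and 7.01 to 8.04 CPM in saline IP, where 1.33% of genes lay wholly lower after cocaine. The 95% interval of Lhx8 (-1.02 to 1.29 on the log2 scale) leaves room for changes of more than 2-fold in either direction. That of Chat leaves room for a fall, and that of Slc18a3 (-0.68 to 1.09) for a rise, of more than 2-fold.

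Ache came nearest, at a TMM-scaled 6.30 ± 0.64 CPM in cocaine IP (SD, n = 5) and 7.42 ± 0.63 CPM in saline IP (SD, n = 3). Its log2 difference was -0.24 (95% interval -0.57 to 0.10). Chat averaged 2.38 ± 1.63 CPM in cocaine IP and 2.87 ± 1.75 CPM in saline IP, with a log2 difference of -0.26 (95% interval -1.32 to 0.80). Slc5a7 averaged 13.9 ± 4.1 CPM in cocaine IP and 11.9 ± 3.1 CPM in saline IP, a difference of 0.22 (95% interval -0.31 to 0.75). For Chat and Slc5a7 the means of the treatments differed by less than the range of the libraries within either.

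The remaining log2 differences were 0.23 for Ecel1 (SE 0.26), 0.21 for Slc18a3 (SE 0.40), 0.13 for Lhx8 (SE 0.53), 0.13 for Slc17a8 (SE 0.38) and -0.06 for Prima1 (SE 0.25). In all, 5 of the 8 had a positive and 3 a negative value, with a median of 0.13 beside 0.006 over all genes. The sign of Chat, Slc18a3, Slc17a8, Lhx8 and Prima1 turned under at least 1 alternative. In the lists of other cholinergic genes, choline metabolism and vesicular transporters, 0 genes passed.

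**Figure D3:**
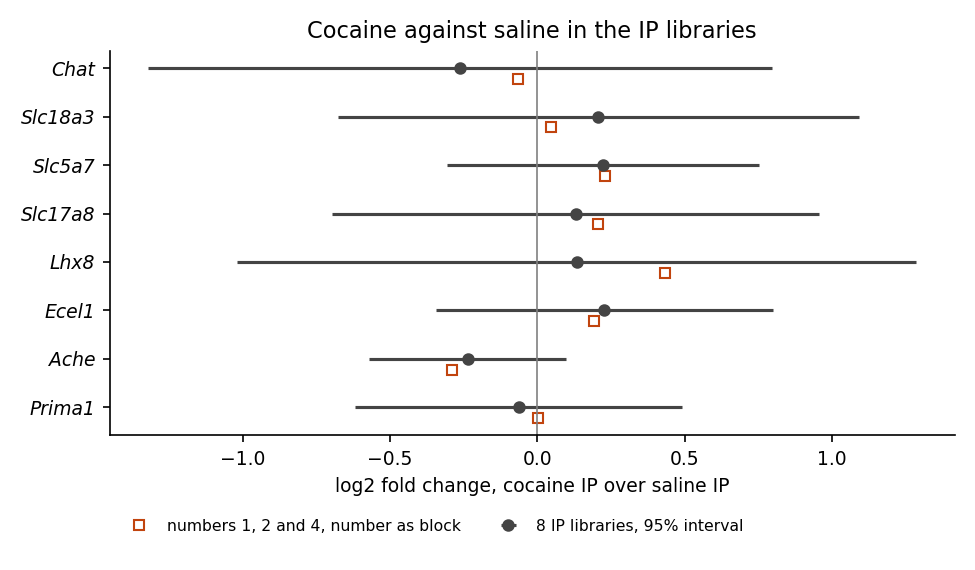
Log2 fold change of cocaine IP over saline IP for the 8 genes. Circles with lines are the fit over all 8 IP libraries with its 95% interval, and open squares are the fit over numbers 1, 2 and 4 with the number as a block. All 8 intervals include 0.

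The treatments share the numbers 1, 2 and 4. Taken number by number, cocaine minus saline was negative for Ache in 3 of 3 pairs, at -0.34, -0.32 and -0.08 on the log2 scale, and positive for Slc17a8 in 3 of 3, at 0.19, 0.31 and 0.01. The other 6 genes had mixed signs. The share of all genes with the same sign in all 3 pairs is not given, so these signs are values only. With the number as a replicate block, the log2 difference was -0.29 for Ache (edgeR adjusted p = 0.799) and 0.21 for Slc17a8 (edgeR adjusted p = 0.888). Over all genes the block raised the count at an unadjusted p under 0.05 to 903, against 141 in the same 6 libraries without it, and 0 genes passed after adjustment, the smallest edgeR adjusted p being 0.0599. Among the IP libraries, only lane 6 held both treatments, with 2 cocaine libraries and 1 saline library. Within it the log2 difference was 0.30 for Chat, 0.96 for Lhx8 and -0.32 for Ache, given as values only. With lane as a covariate over the 8 libraries, the log2 difference was 0.64 for Chat, 1.54 for Lhx8 and -0.36 for Ache. Lane 4 held cocaine libraries only and lane 7 saline libraries only. The lane fit thus also takes its treatment difference from lane 6 alone, with 1 saline library.

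Several of these genes stood apart in the number 1 libraries. Chat, Slc5a7, Slc17a8, Lhx8 and Ecel1 were each highest in the number 1 library of both treatments, 5 of the 8 genes, beside 16.3% of 12154 genes. The pattern was noticed after the values were seen. In TMM-scaled CPM, Lhx8 in number 1 was 3.69 times the median of the other libraries after cocaine and 3.26 times after saline. For Chat the values were 3.12 and 2.61, for Slc17a8 2.15 and 2.34, for Ecel1 1.81 and 1.27, and for Slc5a7 1.62 and 1.35. Ache, in contrast, was lowest in number 1 of both treatments, as were 18.1% of genes, and Slc18a3 and Prima1 did neither.

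**Figure D4:**
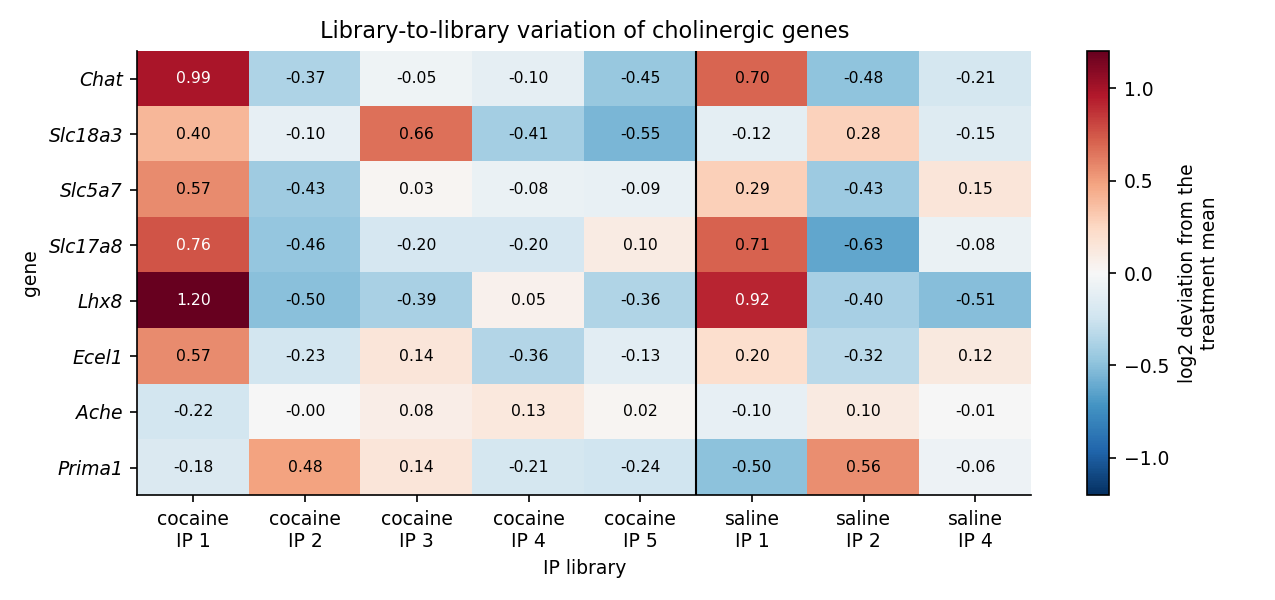
Deviation of each IP library from the mean of its treatment, as log2 of TMM-scaled CPM plus 1, for the 8 genes (rows) in the 5 cocaine and 3 saline IP libraries (columns). Number 1 is red for Chat, Slc5a7, Slc17a8, Lhx8 and Ecel1 in both treatments, and the values there reach 1.20 for Lhx8 and 0.99 for Chat in cocaine IP 1.

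Markers of some other cells were high in the same libraries. All 5 oligodendrocyte genes were highest in number 1 of both treatments, as were 3 of 4 other cholinergic genes, 3 of 6 GABA interneuron genes, 2 of 5 astrocyte genes, 2 of 6 direct-pathway genes and 4 of 13 genes of choline metabolism. None of the 6 indirect-pathway genes, the 4 other vesicular transporters or the 4 thalamus genes was, and 2 of the indirect-pathway genes and 2 of the transporters were lowest there. The oligodendrocyte list summed to 336 CPM in cocaine IP 1, against 172 to 239 CPM in the other cocaine IP libraries, and to 365 CPM in saline IP 1, against 172 and 270 CPM in the other saline IP libraries. The GABA interneuron list summed to 24.4 CPM in cocaine IP 1, against 11.0 to 16.4 CPM in the others, and to 18.5 CPM in saline IP 1, against 9.23 and 18.4 CPM. The thalamus list summed to 36.6 CPM in cocaine IP 1, against 12.6 to 19.8 CPM in the other cocaine IP libraries, and to 13.2 CPM in saline IP 1, against 10.4 and 13.1 CPM. The part of these cells in the levels of the cholinergic genes was not tested.

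The genes whose log2 levels went most with Chat over the 8 IP libraries, as deviations from the treatment mean among genes of at least 5 CPM, were Fkbp4, Blvra, Uevld, Frmpd4 and Cdk14, each with a Pearson correlation of 0.98. Of the cholinergic genes, Lhx8 reached 0.96 (Spearman 0.67), Slc17a8 0.89 (0.69), Slc5a7 0.88 (0.90) and Ecel1 0.83 (0.74). Slc18a3 was at 0.32 (0.36), Prima1 at -0.59 (-0.45) and Ache at -0.82 (-0.55). These values rest on the number 1 libraries, the points farthest from the others. Over the 6 libraries without them, the Pearson correlation was 0.69 for Slc5a7 (Spearman 0.66), 0.49 for Ecel1 (0.43) and 0.32 for Lhx8 (0.03). Slc17a8 was then at 0.21 (-0.03), Ache at 0.28 (0.26), Slc18a3 at 0.35 (0.43) and Prima1 at -0.34 (-0.03). The Pearson values were 0.97 for Frmpd4, 0.86 for Blvra, 0.81 for Fkbp4, 0.78 for Uevld and 0.71 for Cdk14. The libraries share lanes and scaling, and the correlations are given as a description.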

How the data were processed

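Groups, numbers and lanes come from the sample titles and descriptions. Each of the 10 deposited files holds raw read counts per gene symbol; per the submitters' processing notes the authors used mm10, STAR 2.0.0e and HTSeq, whose version, annotation and strand setting the sources used here do not give. The special counters stayed out of library sizes and tests: no-feature reads came to 12.9% to 14.4% of gene, no-feature and ambiguous reads for IP RNA, 27.4% for unbound RNA and 25.5% for input RNA. No libraries of a group agreed within sampling noise.

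The 9 genes and the other lists were chosen with earlier results of these data known. All 9 are named, with Drd2 and Drd1, up to 3 called genes of each list described and the 5 genes most like Chat. Some genes of these lists that were not called are named beside them. IP libraries were set against the single reference by the log2 ratio of CPM after TMM scaling, with 1 CPM added, where a gene averaged 1 CPM or more. Tests were edgeR 4.0.16 (R 4.3.3) on the counts, with filterByExpr and an adjusted p threshold of 0.05; DESeq2 1.42.0 was an alternative. The 2-fold rule and the main edgeR fits were tested on simulated counts. Positions and exonic lengths are from GENCODE on GRCm38, promoters from RefSeq.

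Same-numbered cocaine and saline IP libraries deviated together, with correlations of 0.709, 0.628 and 0.321 for numbers 1, 2 and 4 over 9618 genes of at least 5 CPM, and each saline library correlated best with the cocaine library of its number. The numbers were taken to pair the libraries from these values, as no label tells what a number stands for.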

Additional observations from a re-analysis of the deposited data

Results flagged for a closer look

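Of 18 values checked in the 5 cocaine IP libraries (8 genes and 10 list sums), 4 had a library whose gap to its nearest neighbour was large against the whole range, and chance alone flags about 1 in 20 such groups. In all 4 the library was cocaine IP 1 and was the highest. They were Chat at 5.32 CPM, Lhx8 at 10.7 CPM, the summed level of the 9 cholinergic genes at 76.2 CPM and the summed level of the other cholinergic neuron genes at 36.7 CPM. Chat and Lhx8 also count in the first of these sums, so that the values are not independent. The 3 saline IP libraries are too few for such a check, and there too number 1 was the highest for Chat and Lhx8.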

How the results depend on the processing

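Of 564 values recomputed under alternatives, 509 kept their direction and side of the threshold, or stayed close to the count or median reported. Cocaine against saline gave 0 genes at an adjusted p under 0.05 under every setting run, with 107 (without the lane 4 libraries) to 903 (replicate block) at an unadjusted p under 0.05. The block changed no call among the 8 genes; Prima1 became 0.0019. Fits not past the threshold changed sign for Chat, to 0.64 (lane as a covariate) and 0.20 (without the lane 4 libraries), and for Prima1, to 0.24 and 0.098. The lane fit takes its treatment difference from lane 6 alone, with 1 saline library. Without the number 1 libraries of both treatments, an alternative chosen after seeing the data, Slc18a3 became -0.046. Leaving out 1 library at a time gave -0.80 to 0.34 for Chat, -0.45 to 0.93 for Lhx8, -0.31 to 0.30 for Prima1, -0.18 to 0.65 for Slc17a8 and -0.092 to 0.45 for Slc18a3.

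For IP against its reference, the count of genes at least 2-fold lower after saline was 1 with library size alone, 2 at 1.5-fold and 0 to 3 with 1 library left out. The median of the 8 genes after saline was -0.87 with library size alone and -0.40 with 5 CPM added. After cocaine, 1 gene was higher at 1.5-fold. In the fit over 10 libraries, library size alone gave 2 genes lower after saline, with Ache added at -0.72 (edgeR adjusted p = 0.0424), and 0 genes higher after cocaine. Leaving out 1 library gave 0 to 3 lower after saline, 0 to 1 higher and 0 to 2 lower after cocaine. The shares of all genes under the alternatives of this paragraph are not given. Ecel1 after cocaine became -0.16 with library size alone and -0.078 with DESeq2, and ranged from -0.18 to 0.11 with 1 library left out, as Ache did from -0.060 to 0.041 and Chat after saline from -0.78 to 0.15. The cause was not tested. With 3 reads as the floor, depth limits Gbx2, Chat and Slc18a3 most.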
